A study of Homo sapiens with 11 samples.

Results

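Replication origins, the places where DNA synthesis starts in S phase, were compared between a U2OS list and an HCT116 RepID KO list. Members were all origin regions of both lists on chromosomes 1 to 22. There were 209922 of them, 126050 from U2OS and 83872 from HCT116 RepID KO, of the 212880 origin regions in both lists and the 407030 regions in all 8 lists of the series, which has 11 samples.

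U2OS is a human osteosarcoma line, used here with its RepID gene intact, untreated and not synchronized. HCT116 is a human colon carcinoma line, and the library came from a clone whose RepID gene (also called PHIP) had been knocked out with CRISPR-Cas9, also from an asynchronous culture. Both were cancer lines grown in the same medium and both libraries were nascent strand DNA. The other lists hold ChIP-seq peaks from U2OS (CUL4A, CDT2, H3K4me3 and H3K9me3) and from HCT116 WT and HCT116 RepID KO cells (SKP2). Each list came from 1 library. The origin lists differ in cell line and in RepID together, so the effect of the line and the effect of RepID loss cannot be told apart, and no p-value was computed. The 95% intervals given for shares (Wilson, or Newcombe for a difference) and for medians cover counting error only. The lists give no read totals, so the depth behind each is unknown, and a difference in number cannot be told apart from one in depth or enrichment. An origin list holds no RNA or protein level, so neither the knockout nor the tissue of either line could be checked here.

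Origins are licensed in G1, when ORC, CDC6 and CDT1 load the MCM helicase, and only some of the licensed sites fire in a given cell. A short strand primed by RNA marks a recently fired origin, and the RNA primer protects it from lambda exonuclease, which removes broken DNA. Sequencing such strands therefore gives the origins used across a population of cells. RepID binds a subset of origins and is a substrate receptor of the CRL4 ubiquitin ligase, whose scaffold is CUL4A. CDT2 is another CRL4 receptor, which targets CDT1 in S phase, and SKP2 is the receptor of the SCF ligase that also targets CDT1. H3K4me3 marks active promoters, and H3K9me3 is a mark of heterochromatin.

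Each origin is a run of 200 bp windows, so every start and end lay on a 200 bp grid in both lists. The width had its median at 2400 bp in U2OS (95% interval of the median 2400 to 2400), with quartiles at 1400 and 3800 bp, and at 2000 bp in HCT116 RepID KO (2000 to 2000), with quartiles at 1200 and 3800 bp. The typical U2OS origin was wider, and the upper quartile was the same in both lists. At the wide end the order turned round, with the 95th percentile at 8800 bp for U2OS but 10400 bp for HCT116 RepID KO. The means were 3283 ± 3763 bp (SD over origins) for U2OS and 3376 ± 4595 bp for HCT116 RepID KO, so the mean ordered the lists the other way from the median. Among the stronger 50% of each list by the authors' score, both medians were 3800 bp, so the wider U2OS median does not hold there.

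The extra origins of the U2OS list were of middle width. Up to 1 kb the lists held nearly the same number, 18949 and 18922 origins. From 1 to 2 kb they held 35828 and 23522, a U2OS to HCT116 RepID KO ratio of 1.52. The ratio was highest from 2 to 4 kb, at 1.90 (43130 against 22664 origins), and was 1.64 from 4 to 10 kb. Above 10 kb it was 1.03, with 4572 and 4433 origins. As a share of its list, the narrowest class held 15.0% of U2OS and 22.6% of HCT116 RepID KO origins, and the widest class held 3.63% and 5.29%.

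**Figure D1:**
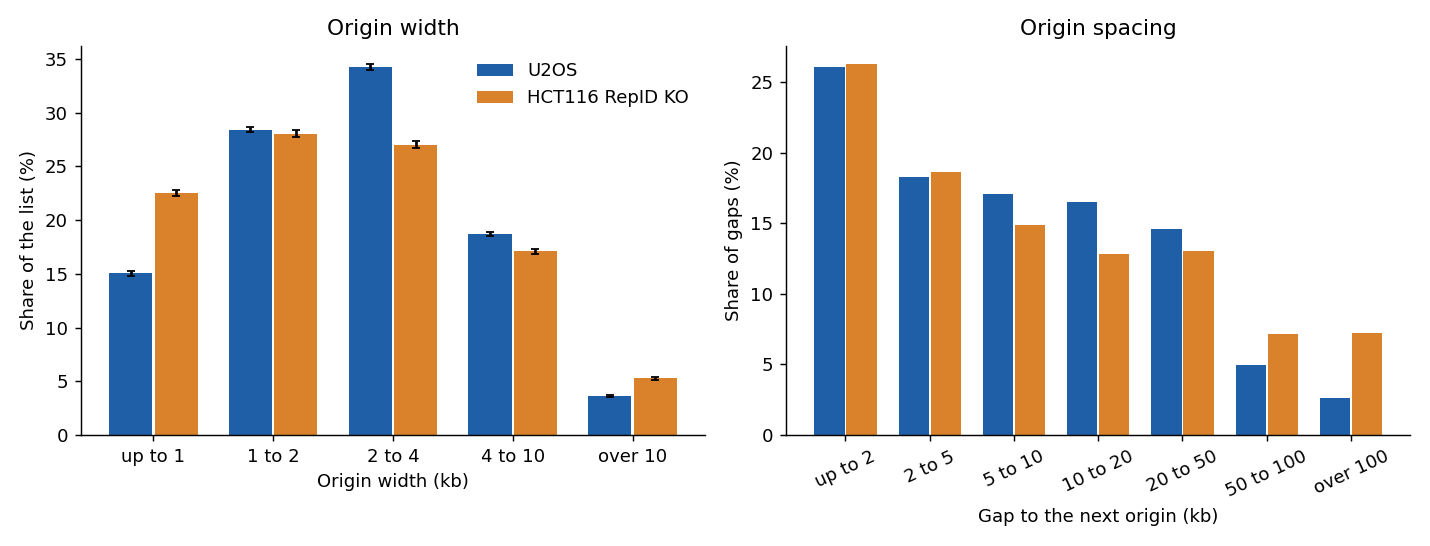
Left, the share of each list (%) in 5 width classes (kb), with Wilson 95% intervals as bars. Right, the share of gaps (%) in 7 classes of distance from the end of an origin to the start of the next (kb). U2OS exceeded HCT116 RepID KO most in the class of 2 to 4 kb, at 34.2% against 27.0%, and gaps over 100 kb made up 2.62% in U2OS and 7.20% in HCT116 RepID KO.

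Sequence inside origins was more concentrated in wide regions in HCT116 RepID KO. Origins covered 413884000 bp in U2OS, 14.4% of the length up to the last region of each chromosome, and 283128200 bp or 9.83% in HCT116 RepID KO. Origins over 10 kb held 18.2% of the U2OS and 27.9% of the HCT116 RepID KO origin sequence. The widest 20.6% of U2OS origins, those of at least 4200 bp, held 50% of its origin sequence. In HCT116 RepID KO the widest 15.8%, of at least 5200 bp, held as much.

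The 3 widest U2OS origins all lay on chromosome 7. The widest, chr7:6490601-6708000 (hg19, as for all coordinates here), was 217400 bp long, met 22 HCT116 RepID KO origins and had 34.5% of its length covered by them. It also held 15 CUL4A and 11 H3K4me3 peaks of U2OS. The next, chr7:1011801-1175200 and chr7:2067001-2216000, were 84.3% and 83.2% covered by HCT116 RepID KO origins. The widest HCT116 RepID KO origin, chr16:88448001-88609600, was 161600 bp long and met 26 U2OS origins, which covered 67.8% of it. It also had the highest score among shared HCT116 RepID KO origins and held 21 CUL4A peaks. The second widest was chr1:2357601-2502200, with 20 U2OS origins over 49.2% of it, and the third, on chromosome 8, met 4 U2OS origins that covered 87.0% of it. More generally, 50.7% of U2OS origins over 10 kb met 2 or more HCT116 RepID KO origins, and 70.7% of HCT116 RepID KO origins over 10 kb met 2 or more of U2OS.

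In the full lists, spacing was alike at short range and differed at long range. The gap from the end of an origin to the start of the next had a median of 6400 bp in both lists (6400 to 6600 in each), and 25% of gaps were of 2000 bp or less in both. The shortest gap was 800 bp in both, the shortest that the authors' merging rule leaves, and 8.88% of U2OS and 8.20% of HCT116 RepID KO gaps had that length. For the upper quartile the values were 17600 bp in U2OS against 23000 bp in HCT116 RepID KO, and for the 95th percentile 67000 bp against 133400 bp. Gaps over 100 kb numbered 3299 in U2OS and 6035 in HCT116 RepID KO, and took up 801 Mb and 1415 Mb, or 33.6% and 56.3% of all sequence between origins. The full lists thus differed in large origin-poor stretches more than in the distance between close neighbours. When the U2OS list was reduced by score to the number of HCT116 RepID KO origins, its median gap was 8000 bp.

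Clustering showed the same contrast between scales. When neighbours within 5 kb were linked, 64.0% of U2OS origins (63.7 to 64.3) and 62.5% of HCT116 RepID KO origins (62.2 to 62.8) had a neighbour. This order does not hold under every setting: in the stronger 50% of each list by the authors' score the shares were 55.4% and 56.8%. Clusters of 5 or more held 22.5% of U2OS origins (28354 origins in 3875 clusters) and 26.8% of HCT116 RepID KO origins (22482 in 2961 clusters). At a link of 20 kb, 90.7% of U2OS and 84.3% of HCT116 RepID KO origins had a neighbour. Origins without a neighbour within 5 kb were narrower, with a median width of 2000 bp (U2OS) or 1600 bp (HCT116 RepID KO), than origins in clusters of 5 or more, at 3200 bp in both.

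Among the 3 largest clusters of each list, the third largest of U2OS lay inside the second largest of HCT116 RepID KO. In U2OS the largest held 34 origins at chr16:85505201-85700400, where HCT116 RepID KO had 8 wider origins that covered 94.4% of the stretch against 74.2% for U2OS. The next held 33 origins at chr17:43039401-43280200 and 32 at chr16:85231001-85418000. In HCT116 RepID KO the largest held 42 origins at chr4:7962001-8338400, where U2OS had 38 origins. There the U2OS origins covered 22.1% of the stretch and the HCT116 RepID KO origins 79.4%. The next held 37 origins at chr16:85077401-85438600 and 35 at chr10:73257201-73582000, where U2OS had 52 and 29.

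Regional density was counted in 1 Mb bins, of which 2712 held an origin of either list. The median bin had 42 U2OS origins and 18 HCT116 RepID KO origins, and the means were 46.3 and 30.7. U2OS had more origins in 1991 bins (73.4%) and HCT116 RepID KO in 658. Across bins the Spearman correlation was 0.72 and Pearson's r 0.73 (n = 2712 bins, which share base composition and gaps of the assembly), so the lists ranked regions broadly alike. Within single chromosomes Spearman's rho ran from 0.40 on chromosome 21 to 0.86 on chromosome 16.

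Origins of HCT116 RepID KO were more concentrated in their densest bins, although 22 bins had no U2OS origin and 7 had no HCT116 RepID KO origin. The densest 25% of bins held 48.9% of U2OS origins and 60.2% of HCT116 RepID KO origins, with bins ranked within each list. The sparser 50% of bins held 21.0% and 14.0%. After each bin was divided by its list's mean, with 1 origin added to every bin, 657 bins (24.2%) were at least 2-fold higher in U2OS and 413 (15.2%) at least 2-fold higher in HCT116 RepID KO. These shares are over all 2712 bins and are the background for the groups of bins that follow.

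**Figure D2:**
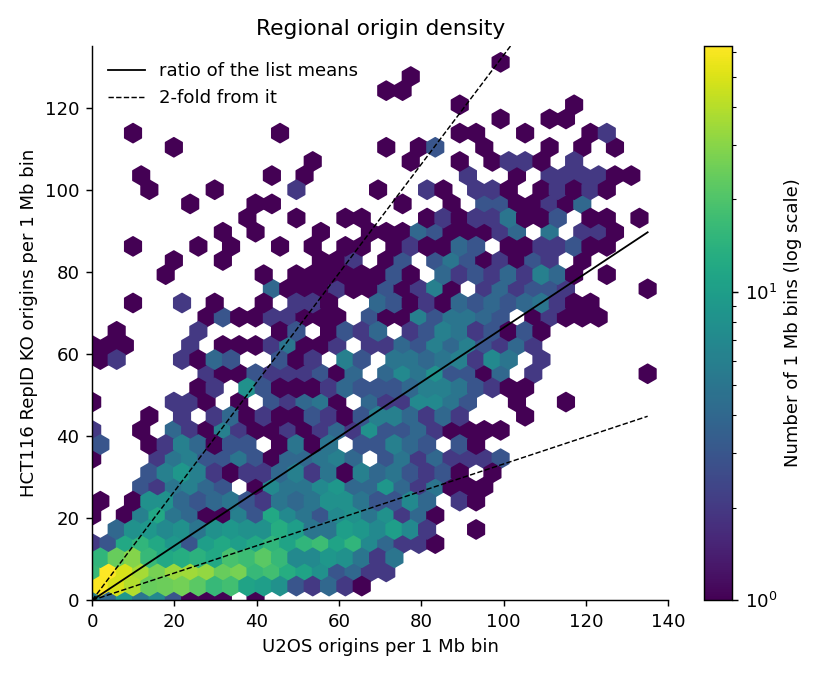
Origins per 1 Mb bin in U2OS (x axis) and HCT116 RepID KO (y axis), over 2712 bins, with the number of bins as colour on a log scale. The solid line is the ratio of the list means and the dashed lines lie 2-fold from it. Many bins with 20 to 70 U2OS origins hold under 20 HCT116 RepID KO origins, while the densest bins lie near or above the solid line.

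The ratio of the lists was highest in bins of middling joint density. Bins were ranked by the sum of both scaled densities and divided into 4 equal groups of 678. The ranking used the same numbers as the ratio, so the order of the groups is partly set by the ranking and is given as a description only. The ratio of U2OS to HCT116 RepID KO origins was 1.68 in the sparsest group (7207 against 4282 origins). It was highest in the second group, at 2.51 (22467 against 8947), where 339 bins (50%) were 2-fold higher in U2OS after scaling. In the third group it was 1.79. In the densest group it was 1.19 (58309 against 49117). From the sparsest to the densest group, bins 2-fold higher in U2OS numbered 133, 339, 184 and 1. Bins 2-fold higher in HCT116 RepID KO numbered 181 (26.7%), 72, 93 and 67 (9.88%), so most of any group in the sparsest. The median bin there held 9 U2OS and 6 HCT116 RepID KO origins, so the 1 origin added to every bin weighs most there. The ratio of the whole lists was 1.50.

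By chromosome, U2OS had more origins per Mb on every autosome but 13 and 19. The ratio was highest on chromosome 3, at 2.13 (46.9 against 21.97 origins per Mb), and chromosome 5, at 2.01 (45.6 against 22.6). On chromosome 13 it was 0.661, with 12.8 origins per Mb in U2OS and 19.4 in HCT116 RepID KO. Chromosome 19 had 74.2 and 74.7 per Mb. Chromosome 22 was densest in U2OS, at 83.4 per Mb against 72.3 in HCT116 RepID KO. Chromosome 13 was the sparsest in U2OS, and chromosome 4, at 26.4 against 14.3 per Mb, the sparsest in HCT116 RepID KO. Chromosome copy number, which is altered in cancer lines such as these, was not analysed here.

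**Figure D3:**
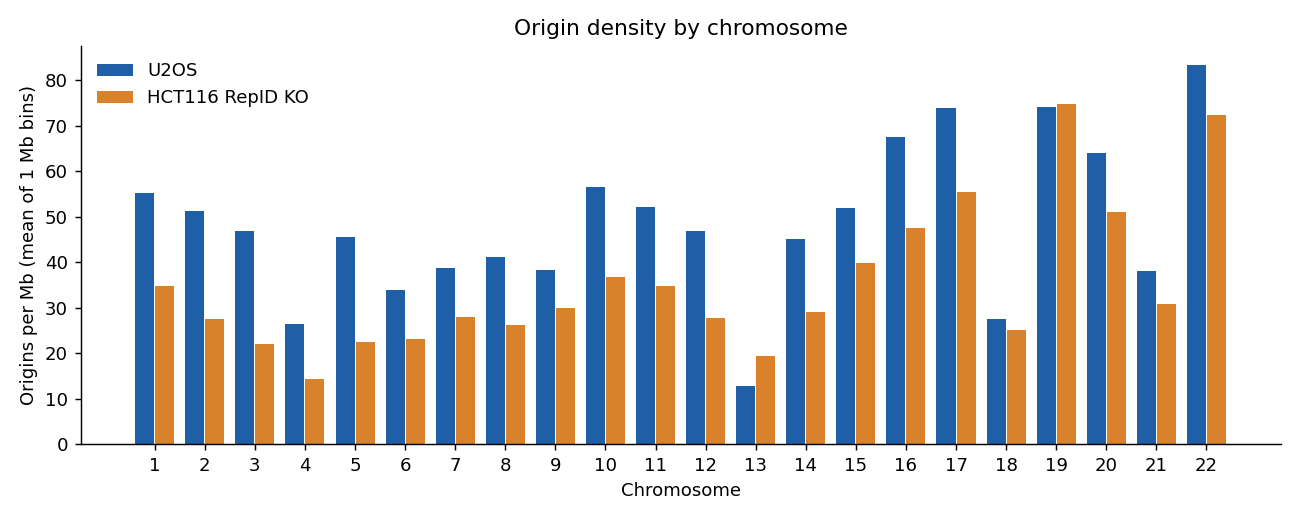
Mean number of origins per 1 Mb bin (bars, from 0) for chromosomes 1 to 22 in U2OS and HCT116 RepID KO. U2OS was higher on 20 chromosomes, and HCT116 RepID KO was higher on chromosome 13 (19.4 against 12.8) and, by 0.5 origins per Mb or less, on chromosome 19.

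Bins that differed 2-fold in number of origins often lay side by side. In U2OS, 72 runs of at least 3 neighbouring bins were 2-fold higher, 452 bins in all, and in HCT116 RepID KO 48 runs with 239 bins. The longest run higher in U2OS was chr3:97000001-119000000, 22 bins with 1118 U2OS and 188 HCT116 RepID KO origins. The next were 19 bins at chr5:50000001-69000000 (1119 against 244) and 18 bins at chr1:73000001-91000000 (846 against 153). The longest run higher in HCT116 RepID KO was chr13:19000001-32000000, 13 bins with 514 HCT116 RepID KO and 287 U2OS origins. It was followed by 12 bins at chr7:145000001-157000000, with 550 against 62. Runs with more origins in either list after scaling were thus far longer than an origin or a cluster. Runs were called on numbers, not on covered sequence.

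Among single bins with at least 20 origins, the lowest ratio was in chr7:148000001-149000000, with 0 U2OS and 42 HCT116 RepID KO origins. It was followed by chr19:22000001-23000000 (0 against 40) and chr21:40000001-41000000 (1 against 62). The highest ratios were in chr3:60000001-61000000 (20 U2OS origins against 0), chr11:80000001-81000000 (40 against 1) and chr21:31000001-32000000 (58 against 2). Chromosome 21 thus held both a bin nearly free of U2OS origins and a bin nearly free of HCT116 RepID KO origins.

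Whole stretches held called origins of only 1 of the lists. These stretches were picked after their values were seen, by the number of consecutive origins of either list with none of the other between them, counted by their centres. In all, 1147 stretches with 10 or more U2OS origins had none of HCT116 RepID KO and held 16486 of the 126050 U2OS origins. The reverse was found 98 times, with 1759 of the 83872 HCT116 RepID KO origins. The U2OS list is 1.50 times as long, and a longer list leaves more unbroken strings, so these numbers are not on equal terms. The longest string of U2OS origins was 49, in chr16:6117201-7277200, where the U2OS lists held 39 H3K9me3, 22 CUL4A, 19 CDT2 and 5 H3K4me3 peaks. Per Mb these were 33.6, 19.0, 16.4 and 4.31 peaks, against means over all bins of 20.7, 20.5, 10.2 and 8.93. A further 43 lay in chr1:118700401-119502600. The longest string of HCT116 RepID KO origins was 82, in chr7:146479401-149473600, a stretch of 2.99 Mb.

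The stretch on chromosome 7 was not empty in the other U2OS lists. It held 30 H3K4me3 and 26 H3K9me3 peaks of U2OS, 7 CUL4A peaks and 4 CDT2 peaks. The SKP2 lists had 9 peaks there in HCT116 WT and 15 in HCT116 RepID KO. Per Mb, H3K4me3 was near its mean over all bins (10.02 against 8.93 peaks), while H3K9me3 (8.68 against 20.7), CUL4A (2.34 against 20.5) and CDT2 (1.34 against 10.2) were below theirs. The SKP2 lists had 3.01 against 4.399 in HCT116 WT and 5.01 against 4.98 in HCT116 RepID KO. The second such stretch, chr19:21890601-24183200, held 72 HCT116 RepID KO origins and 9 H3K4me3, 5 CUL4A and 4 H3K9me3 peaks of U2OS. Per Mb, H3K4me3 (3.93), CUL4A (2.18) and H3K9me3 (1.74) were all below the means over all bins given above. The third, chr21:40366801-41346400, held 59 HCT116 RepID KO origins and 10 H3K4me3 peaks of U2OS. Per Mb, H3K4me3 (10.2) was above its mean there, while CUL4A (6.12), CDT2 (5.10) and H3K9me3 (8.17) were below theirs. Peaks of U2OS ChIP lists were called in these stretches, and no U2OS origin was. Copy number and mappability there were not analysed, and the cause was not tested.

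An origin was called shared when it had at least 1 bp in common with an origin of the other list, and line-specific otherwise. Of U2OS origins 53194 of 126050 were shared, 42.2% (41.9 to 42.5), and of HCT116 RepID KO origins 50538 of 83872, 60.3% (59.9 to 60.6). The longer list covers more sequence, so the HCT116 RepID KO share is read against a larger target. Taken down to the same number of regions by score, the U2OS list was 51.0% shared and the HCT116 RepID KO list 52.0%. The difference between the lists' shares was then about 1 percentage point. In base pairs, 154498400 bp lay in origins of both lists, which is 37.3% of the U2OS and 54.6% of the HCT116 RepID KO origin sequence and 28.5% of their union.

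The shared share rose with width in both lists. In U2OS it was 26.3% up to 1 kb, 31.0% from 1 to 2 kb, 41.5% from 2 to 4 kb, 64.4% from 4 to 10 kb and 87.8% above 10 kb. In HCT116 RepID KO it was 40.3%, 51.1%, 64.7%, 83.5% and 96.3% in the same classes. A wide region meets more of any list, so the same was counted from the centre of each origin, which has no width. The centre lay inside an origin of the other list for 24.3% of the narrowest and 58.3% of the widest U2OS origins. The corresponding HCT116 RepID KO shares were 37.9% and 67.0%.

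Wide origins lay in bins that the other list covered more. For each origin, the share of its own 1 Mb bin that the other list covered was used as the local background. For U2OS this background rose from 13.4% in the narrowest to 28.2% in the widest class, and centres lay inside the other list 1.81 and 2.07 times as often as it. Across the 5 classes the ratio was between 1.78 and 2.07 in U2OS, and between 1.83 and 1.96 in HCT116 RepID KO. With centres less than 1 kb apart as the criterion, 19.3% of U2OS and 29.0% of HCT116 RepID KO origins were shared, and the widest and narrowest U2OS classes differed by 3.88 percentage points in place of 61.4. How much sharing rose with width thus depended on the criterion: steeply with any overlap, less with the centre inside the other list, and little with the centre-to-centre distance.

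**Figure D4:**
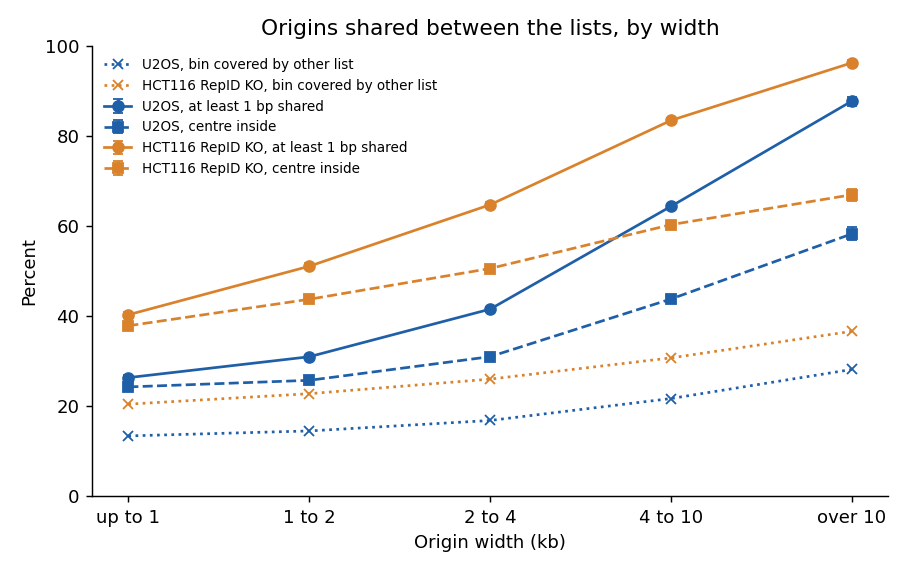
Percent of origins (y axis) by width class in kb (x axis) for U2OS and HCT116 RepID KO, with Wilson 95% intervals. Solid lines give origins sharing at least 1 bp with the other list, dashed lines origins whose centre lies inside the other list, and dotted lines the mean share of their 1 Mb bin that the other list covers. Solid lines climb most steeply (26.3% to 87.8% in U2OS), and dashed lines stay 1.78 to 2.07 times as high as the dotted ones.

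Sharing was highest in dense regions. When origins were grouped by the density of their own list in the bin, with 25% of bins in each of 4 groups, the shared share of U2OS origins was 21.4%, 23.8%, 31.2% and 57.4% from the sparsest to the densest. For HCT116 RepID KO it was 30.5%, 42.5%, 55.1% and 67.7%. Relative to local coverage the order was the reverse, with U2OS centres inside the other list 6.41 times as often as its bin coverage in the sparsest group and 1.60 times in the densest. For HCT116 RepID KO these ratios were 5.64 and 1.63. Origins of sparse regions were thus less often shared in number. The ratio has a ceiling that falls as coverage rises. Coverage by the other list was 2.58% in the sparsest and 27.6% in the densest U2OS group, and 4.54% and 32.7% for HCT116 RepID KO. The order of the ratios is therefore partly set by coverage, and no difference between sparse and dense regions is read from it.

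The authors' score, used only to rank regions within a list, also went with sharing. From the lowest to the highest 20% of scores, 22.9% to 74.5% of U2OS and 39.3% to 87.8% of HCT116 RepID KO origins were shared. Score and width rise together, so the ranking was repeated within origins of 1 to 2 kb, where the shares ran from 23.1% to 46.9% in U2OS and from 44.7% to 60.9% in HCT116 RepID KO. Shared origins also had a neighbour within 5 kb more often than line-specific ones, 77.6% against 54.1% in U2OS and 70.0% against 51.1% in HCT116 RepID KO. Their median width was 3200 bp against 2000 bp in U2OS and 2600 bp against 1400 bp in HCT116 RepID KO.

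Shared origins formed 41812 places where origins of the lists touched. At 30649 of them (73.3%) 1 U2OS origin met 1 HCT116 RepID KO origin. At 3975 places 1 U2OS origin met several of HCT116 RepID KO, at 4828 the reverse was found, and at 2360 several met several. In the paired places the centres were a median of 600 bp apart, and 68.9% were within 1 kb. The paired origins did not have the same extent: the median width was 2800 bp for U2OS against 2200 bp for HCT116 RepID KO, U2OS was wider in 57.9% of pairs, and only 504 pairs (1.64%) had the same start and end. Widths in a pair were weakly related (Spearman's rho 0.26 over 30649 pairs).

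Line-specific origins were not equally far from the other list. For the 72856 U2OS-only origins the nearest HCT116 RepID KO origin was a median of 15800 bp away, and for the 33334 HCT116 RepID KO-only origins the nearest U2OS origin was 6000 bp away. Within 10 kb lay 39.3% of the former and 64.0% of the latter. Over 100 kb away were 9.06% (6603 origins) and 4.54% (1514 origins). The HCT116 RepID KO list is the sparser of the lists, so these distances are not measured against equal targets.

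The 3 widest U2OS-only origins were chr21:10698001-10767800 (69800 bp), chr16:32504801-32562800 and chr11:51223001-51271800. The 3 widest HCT116 RepID KO-only origins were chr21:10772001-10860800 (88800 bp), chr4:49093201-49158800 and chr4:9212601-9274600. The widest of each list lay side by side on chromosome 21. The HCT116 RepID KO region there held 47 CDT2 and 12 H3K9me3 peaks of U2OS, 11 SKP2 peaks of HCT116 RepID KO and no H3K4me3 peak. The region chr4:49093201-49158800 had the highest score among HCT116 RepID KO-only origins and held 21 CDT2 peaks and no H3K4me3 peak. The highest-scoring U2OS-only origin, chr1:564401-571200, was 6800 bp long and held 1 CUL4A peak. The mean over all bins was 10.2 CDT2 peaks per Mb, so the 47 in 88800 bp on chromosome 21 are an extreme pile-up of peaks. Repeats and mappability at these named regions were not examined, so whether they are true line-specific origins is unknown.

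The U2OS and SKP2 ChIP lists were a readout that the sharing rule did not use. Shared U2OS origins met every list more often than U2OS-only origins. For CUL4A it was 53.4% against 12.6%, a difference of 40.7 percentage points (40.2 to 41.2). For H3K4me3 it was 22.6% against 3.76%, and the difference of 18.8 points (18.5 to 19.2) was 17.1 points at the same mix of width classes. CDT2 was met by 17.2% against 8.66%, and H3K9me3 by 23.7% against 15.8%. SKP2 of HCT116 WT was met by 8.46% against 2.49%, and SKP2 of HCT116 RepID KO by 9.16% against 3.48%. At the same width mix the ratio was largest for H3K4me3 (5.12) and CUL4A (3.65), and smallest for H3K9me3 (1.20). None of the 6 lists was met by 28.2% of shared and 68.9% of U2OS-only origins.

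Shared HCT116 RepID KO origins were much like shared U2OS origins, as they are the same places seen from the other list. CUL4A was met by 52.0% of them, H3K4me3 by 22.4% and H3K9me3 by 22.4%. The HCT116 RepID KO-only origins met CUL4A in 21.1%, H3K4me3 in 12.8%, H3K9me3 in 7.92% and CDT2 in 4.94%. None of the 6 lists was met by 30.6% of shared and 61.5% of HCT116 RepID KO-only origins.

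HCT116 RepID KO-only origins lay at U2OS promoter marks more often than U2OS-only origins did, although the marks were measured in U2OS. H3K4me3 was met by 4252 of 33334 HCT116 RepID KO-only origins (12.8%) and 2737 of 72856 U2OS-only origins (3.76%), a difference of 8.999 points (8.62 to 9.39). The share was higher in HCT116 RepID KO-only origins in all 5 width classes. Up to 1 kb it was 9.87% against 2.88%, and from 2 to 4 kb 14.1% against 4.04%. It was also higher on all 22 chromosomes, where it ran from 9.86% to 16.6% in HCT116 RepID KO-only and from 2.69% to 9.97% in U2OS-only origins. The difference was widest in the sparsest 25% of bins by joint density, 15.2% against 1.66%, and narrowest in the densest, 10.3% against 5.25%. At the same mix of widths and bin densities the shares were 13.8% and 3.78%. Over all origins of each list, shared ones included, H3K4me3 was met by 18.6% in HCT116 RepID KO and 11.7% in U2OS. The whole lists thus differed in the same direction, and each line-specific set was below the share of its own list.

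H3K9me3 went the other way. It was met by 7.92% of HCT116 RepID KO-only and 15.8% of U2OS-only origins, a difference of -7.86 points (-8.25 to -7.47). It was lower in HCT116 RepID KO-only origins in all 5 width classes, in all 4 groups of bins by density and on all 22 chromosomes. At the same widths and densities the shares were 8.60% and 15.5%. CDT2 had the same direction, at 5.18% against 8.69%, except above 10 kb, where it was 26.5% against 21.4% with a difference whose interval spans 0. CUL4A had the direction of H3K4me3, at 21.5% against 12.8%. Over all origins of HCT116 RepID KO and U2OS, H3K9me3 was met by 16.7% and 19.1%, CDT2 by 12.1% and 12.3%, and CUL4A by 39.7% and 29.8%.

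SKP2 differed between the line-specific sets in a way that changed with width. At the same widths and densities the HCT116 WT list was met by 3.43% of HCT116 RepID KO-only and 2.48% of U2OS-only origins, and the HCT116 RepID KO list by 3.59% and 3.47%. For the HCT116 RepID KO list the pooled difference was -0.145 points (-0.376 to 0.0921). Up to 1 kb it was -0.878 points (-1.27 to -0.479), with 2.23% against 3.11% of origins. From 4 to 10 kb it was 4.08 points (2.92 to 5.36), with 8.69% against 4.61%, and above 10 kb 16.2 points (9.85 to 23.5), with 24.1% of 166 against 7.86% of 560 origins. Wide HCT116 RepID KO-only origins thus met SKP2 of their own line more often than wide U2OS-only origins did, and narrow ones less often. For the HCT116 WT list the difference also grew with width, from 0.0243 points (-0.351 to 0.406) up to 1 kb to 14.0 points (7.88 to 21.1) above 10 kb.

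**Figure D5:**
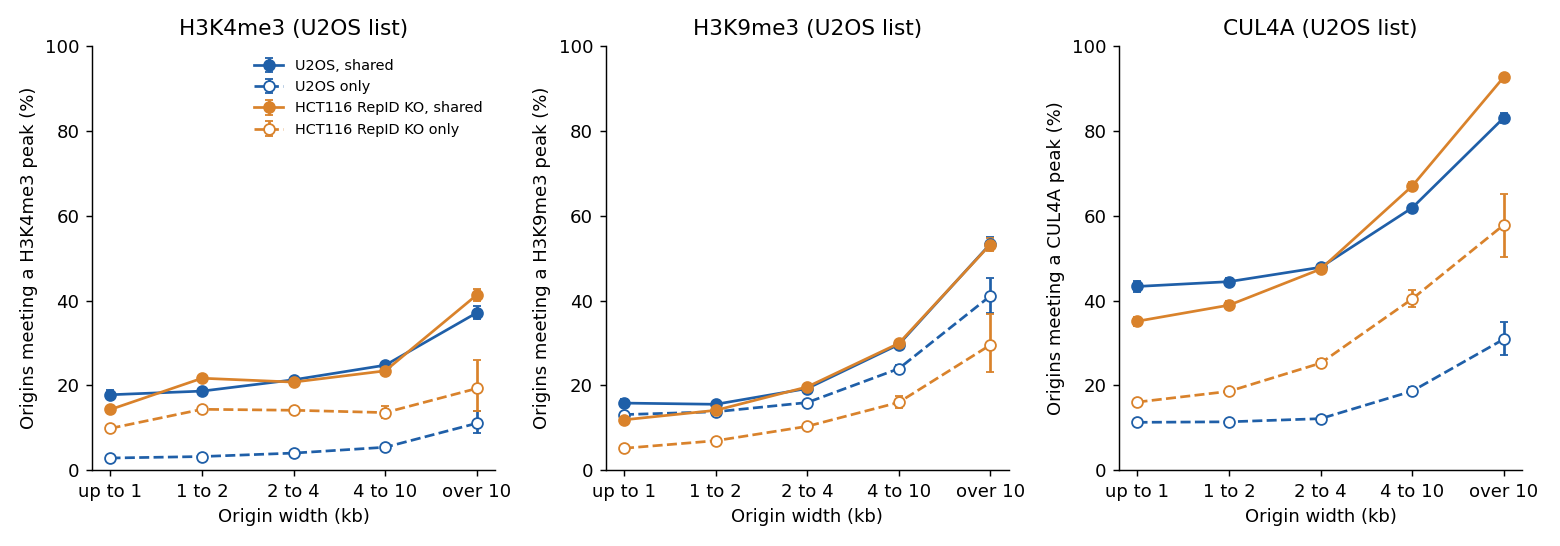
Percent of origins meeting a peak of the U2OS H3K4me3, H3K9me3 and CUL4A lists (y axes) by width class in kb, with Wilson 95% intervals. Filled points are shared origins and open points line-specific origins of U2OS and HCT116 RepID KO. For H3K4me3 the open HCT116 RepID KO points lie above the open U2OS points in every class (9.87% against 2.88% up to 1 kb), and for H3K9me3 they lie below (5.18% against 13.1% up to 1 kb).

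Counted from the peaks, without reference to origin width classes, the pooled order was the same for H3K4me3, H3K9me3 and CDT2. It was the reverse for CUL4A and for SKP2 of HCT116 WT. Of CUL4A peaks 17.5% met U2OS origins only and 14.8% HCT116 RepID KO origins only. Of SKP2 peaks of HCT116 WT these shares were 18.5% and 13.2%. Of 24227 H3K4me3 peaks of U2OS, 61.0% met a U2OS origin and 70.0% an HCT116 RepID KO origin, although the latter list is shorter and covers less sequence. Both were met by 49.9%, U2OS only by 11.2%, HCT116 RepID KO only by 20.1% and neither by 18.9%. The difference was 8.92 points in favour of HCT116 RepID KO and 18.0 points when the U2OS list was reduced to the same number of origins by score. The other lists met U2OS origins more often: H3K9me3 peaks in 47.4% against 28.3%, CDT2 peaks in 62.9% against 44.2%, and CUL4A peaks in 69.8% against 67.0%. SKP2 peaks of HCT116 WT met U2OS origins in 54.8% and HCT116 RepID KO origins in 49.4%, and SKP2 peaks of HCT116 RepID KO in 56.8% and 45.9%. The SKP2 peaks, called in HCT116 cells, thus met U2OS origins more often than HCT116 RepID KO origins. The U2OS list holds 1.50 times as many regions and covers 1.46 times as much sequence.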

How the data were processed

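Nascent strands of 0.5 to 2 kb were isolated by the authors from asynchronous cells by size fractionation and lambda exonuclease digestion and sequenced. The authors called enriched regions with SICER (window 200 bp, gap 600 bp, false discovery rate 0.01) against genomic DNA on hg19, 1 list per library. The aligner and the library totals were not given in the sources used here. Each deposited list carries a whole-number score per region whose scale is not stated, and the score was used only to rank regions within a list. Each list rests on 1 library, so precision was limited to counting error, with Wilson and Newcombe 95% intervals for shares and exact binomial order-statistic intervals for medians.

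Overlap needed at least 1 bp. Gaps ran from the end of an origin to the start of the next, and neighbours within 5 kb (5000 bp) were linked. Whole 1 Mb bins with an origin in either list were used, and a bin was called at a 2-fold scaled difference in number of origins. Origins were assigned to bins by their centre. Named places were, by rule, the 3 widest origins of each list, the 3 widest line-specific ones, those with the highest score, the 3 largest clusters, the bins with the 3 highest and 3 lowest ratios among those with at least 20 origins, and the longest runs of called bins. The members and these rules were chosen with earlier results of these data known. Python 3.11.15, NumPy 2.4.6, SciPy 1.17.1, pandas 2.3.3 and matplotlib 3.10.9 were used, and the interval functions were tested on simulated data against direct counts. Chromosome X and other sequences were left out of the main values. Alternatives were subsets by score, other overlap rules, other bins, other linking distances and matched widths. Origins at gene starts and cell type markers were not analysed here, since the annotation at hand is of another build than hg19. The input of GEO label "U2OS FLAG-RepID FL" carries an HCT116 cell line label and was assigned to no group. The CDT2, CUL4A and histone lists were labelled U2OS with no genotype of RepID.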

Additional observations from a re-analysis of the deposited data

How the results depend on the processing

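Of 73 alternatives, 33 moved a value by no more than its counting interval, 40 moved it further and 0 changed the sign of a value given as a difference or a correlation, while the order of the lists in the share with a neighbour turned in 2 alternatives, given at the end. The alternatives for the H3K4me3 comparison of the line-specific sets and for the H3K4me3 peaks were chosen after seeing the data. In the stronger 50% of each list by score the median widths were 3800 bp in both lists, the median gaps 9200 bp (U2OS) and 8600 bp (HCT116 RepID KO), the shares with a neighbour within 5 kb 55.4% and 56.8%, the shared U2OS share 43.2%, the rank correlation of bins 0.69 and the gap in sharing between the widest and narrowest U2OS origins 36.5 points. There the H3K4me3 difference was 20.1 points between shared and U2OS-only origins, 16.2 points between HCT116 RepID KO-only and U2OS-only origins, and 7.99 points over the H3K4me3 peaks. With U2OS reduced to the number of HCT116 RepID KO origins, the U2OS median width was 3200 bp, its median gap 8000 bp, its share with a neighbour 58.6%, the shared shares 51.0% and 52.0%, the width gap 38.7 points and the 3 H3K4me3 differences 19.3, 9.43 and 18.0 points.

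With chromosome X, 62.0% of HCT116 RepID KO origins had a neighbour and 59.7% were shared. When 50% of an origin had to be covered, 31.2% of U2OS and 49.3% of HCT116 RepID KO origins were shared, with a width gap of 33.1 points. With a distance of up to 2 kb allowed, these were 48.6%, 69.0% and 54.9 points, and the H3K4me3 difference of the line-specific sets was 10.3 points. With centres less than 1 kb apart they were 19.3%, 29.0% and 3.88 points. Bins of 500 kb gave a rank correlation of 0.70. Linking at 10 kb gave neighbours to 79.5% of U2OS and 74.8% of HCT116 RepID KO origins, and at 2 kb to 42.3% and 42.1%. At the same width mix shared and U2OS-only origins differed by 17.1 points for H3K4me3, and at the same widths and densities the line-specific sets by 10.1 points.

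The HCT116 RepID KO list had the higher shared share under 7 of 7 alternatives. The shared numbers were close (53194 U2OS and 50538 HCT116 RepID KO origins), so the shorter list has the higher share by arithmetic. This order therefore does not bear on a difference between the lines, and at equal numbers the shares were 51.0% and 52.0%. The U2OS median width was higher under 3 of 4 and equal under the other. The U2OS share with a neighbour was higher under 4 of 6 and lower in the stronger 50% and at equal numbers. The causes were not tested. Libraries could not be paired because each list has 1 library, and no test was run. The H3K4me3 peak comparison scored the same peaks against both lists. Its counting interval, used only to sort its alternatives, treated the shares as independent. With 1 library each and unknown depth, differences in number, spacing and coverage cannot be told apart from differences in depth or enrichment.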
